A study of Rattus norvegicus with 16 samples.

Results

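Mesothelial cells form the thin sheet that covers the liver capsule and lines the abdominal cavity. They secrete a lubricating surface layer and, in mice, are known to give rise to mesenchymal cells of the developing and injured liver. The sheet lies at the surface, so a piece of liver holds few of these cells beside its hepatocytes. The 8 genes described here are known markers of this cell type: Msln, Upk3b, Upk1b, Wt1, Lrrn4, Gpm6a, Muc16 and Bnc1. They were taken by symbol from the deposited gene table, which held all 8 among its 17544 genes, and all 8 were among the 12732 genes tested. None of them passed the test in any comparison of dose groups, but their levels differed several-fold between animals of one group, and 6 of the 8 varied closely together from animal to animal.

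The samples were livers of male SD rats that had been injected intraperitoneally for 28 days. One group of rats received saline and the others received xylazine, an alpha-2 adrenergic agonist used to sedate animals, at 10, 20 or 40 mg/kg. The study used 40 rats, and 4 livers from each of the 4 groups were sequenced as messenger RNA, so that each of the 16 libraries came from 1 animal. The ages of the rats, and whether the frozen pieces included the capsule, are not given in the sources used here.

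Library totals lay between 16059900 and 16956900 expected counts, which are reads assigned to genes by estimation. The tissue label was checked against 10 hepatocyte genes, whose summed level lay between 161641 and 214973 CPM, which are counts scaled by library size, in the 16 libraries, so hepatocyte RNA was abundant in every one. All values below describe whole liver pieces, in which fewer cells of a type and less RNA per cell cannot be told apart. No batch or date was given.

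The members were compared with each other in TPM, the deposited unit that corrects for transcript length. Gpm6a, a membrane glycoprotein best known from neurons, had the highest level, with 9.80 ± 3.92 TPM (mean ± SD, n = 16). Msln, which encodes the precursor of the surface protein mesothelin, followed with 2.95 ± 2.17 TPM, and lay below Gpm6a in 15 of 16 animals. Upk3b and Upk1b encode uroplakins, membrane proteins first described on the urothelium of the bladder.

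Upk3b stood at 0.819 ± 0.679 TPM and was below Msln in 16 of 16 animals. Upk1b, at 0.483 ± 0.409 TPM, and the leucine-rich repeat membrane protein gene Lrrn4, at 0.446 ± 0.348 TPM, were not separated, since Upk1b was the higher in 9 of 16 animals. Below them came the 2 transcription factor genes and the mucin. Wt1, a zinc finger factor needed for mesothelial and kidney development in mice, stood at 0.250 ± 0.106 TPM. Bnc1, the zinc finger protein basonuclin, stood at 0.104 ± 0.0879 TPM and Muc16, the large membrane mucin known in humans as CA125, at 0.0744 ± 0.0657 TPM. Bnc1 lay above Muc16 in 11 of 16 animals, so their order was not clear. Muc16, whose transcript is much longer, collected 0 to 74 expected counts per library and Bnc1 0 to 16.

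These levels rested on few reads. Gpm6a was supported by 21 to 557 expected counts per library and Msln by 4 to 235, whereas Wt1 had between 3 and 14 and Bnc1 between 0 and 16. Upk1b and Muc16 had no read in saline replicate 3, and Bnc1 had none in replicate 1 of the 10 mg/kg group. Lrrn4 was the member whose counts were not whole numbers, as arises when reads are divided between loci, and its values are uncertain to that extent. In the RefSeq annotation of GRCr8, Upk3b overlaps a long non-coding RNA gene, and Gpm6a overlaps a long non-coding RNA, a small nuclear RNA and a pseudogene. The strandedness of the libraries is not given in the sources used here, so reads of these neighbours cannot be told apart from those of the member where they overlap.

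RefSeq promoter windows, from 250 bases before to 50 bases after the annotated start, were matched for 6 of the 8 members, all but Msln and Muc16. Windows of 4 members are shown because they belong to the members that the between-animal results turn on: Upk3b, Lrrn4 and Bnc1, which varied together, and Gpm6a, which went least with the others. They are written 5′ to 3′ on the strand of the gene, with every CpG dinucleotide in capitals, in GRCr8 coordinates.
Upk3b, chr12:26274191-26274490, minus strand: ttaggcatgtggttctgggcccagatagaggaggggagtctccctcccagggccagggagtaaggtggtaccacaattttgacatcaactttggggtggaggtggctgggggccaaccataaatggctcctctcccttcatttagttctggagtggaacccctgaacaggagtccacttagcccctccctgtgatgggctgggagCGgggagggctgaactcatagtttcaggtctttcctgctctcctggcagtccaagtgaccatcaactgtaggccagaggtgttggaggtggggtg
Lrrn4, chr3:140603937-140604236, minus strand: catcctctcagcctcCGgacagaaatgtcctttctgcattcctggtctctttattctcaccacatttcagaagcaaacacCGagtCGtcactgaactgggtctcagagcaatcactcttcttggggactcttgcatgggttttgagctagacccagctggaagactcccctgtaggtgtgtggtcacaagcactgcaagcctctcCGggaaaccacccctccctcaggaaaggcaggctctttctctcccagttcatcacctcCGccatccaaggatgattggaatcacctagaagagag
Bnc1, chr1:145352485-145352784, minus strand: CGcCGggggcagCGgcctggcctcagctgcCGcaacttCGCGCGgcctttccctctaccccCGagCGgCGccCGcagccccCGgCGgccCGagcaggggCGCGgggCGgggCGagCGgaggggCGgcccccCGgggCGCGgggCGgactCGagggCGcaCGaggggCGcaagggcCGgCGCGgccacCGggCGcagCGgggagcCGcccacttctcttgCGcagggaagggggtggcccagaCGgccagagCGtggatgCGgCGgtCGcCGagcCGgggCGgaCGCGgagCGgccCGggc
Gpm6a, chr16:43706412-43706711, minus strand: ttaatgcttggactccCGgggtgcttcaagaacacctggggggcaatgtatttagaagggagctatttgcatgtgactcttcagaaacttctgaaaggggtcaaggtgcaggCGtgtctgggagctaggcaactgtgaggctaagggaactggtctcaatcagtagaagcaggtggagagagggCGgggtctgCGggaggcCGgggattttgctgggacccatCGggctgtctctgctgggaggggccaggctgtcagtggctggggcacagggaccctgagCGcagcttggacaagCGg

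The windows of the genes that varied together differed in base composition. The Upk3b window held 1 CpG and 56.7% G or C, and that of Lrrn4 5 CpG and 52.3%, beside medians of 7 CpG and 51.7% over 33469 rat promoter windows of the same length. The Bnc1 window held 48 CpG and 82.7% G or C, at least as many CpG as 99.1% of all windows. The window of Gpm6a held 8 CpG and 58.7%. Of the other windows available, that of Wt1 held 34 CpG and that of Upk1b 6.

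A search of both strands for 4 short motifs found no motif common to the 6 members. The GC box GGGCGG stood in 2 of 6 windows, those of Bnc1, with 5 matches, and Gpm6a, with 1, against 33.1% of all windows. CCAAT stood in 2 of 6, Lrrn4 and Upk1b, against 37.5%. The same 2 windows held GGAATG, the core bound by TEAD factors, against 14.2% of all windows, and TATAAA stood in none of the 6, against 14.2%. These are matches of letters only.

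The comparison of each dose with saline asked whether mesothelial transcripts changed with xylazine. For Msln, the saline animals stood at 5.96, 1.02, 1.45 and 5.09 CPM (replicates 1 to 4, here and in all later lists). The animals given 10 mg/kg stood at 0.246, 5.52, 3.49 and 3.27 CPM, and those given 20 mg/kg at 2.23, 3.76, 3.96 and 9.22 CPM. The values at 40 mg/kg were 13.8, 4.54, 5.02 and 4.08 CPM. Every dose group overlapped with saline, and the highest and lowest of all 16 values belonged to 1 animal at 40 mg/kg and 1 at 10 mg/kg. The group means were 3.38 ± 2.51, 3.13 ± 2.18, 4.79 ± 3.05 and 6.86 ± 4.64 CPM (SD, n = 4) from saline to 40 mg/kg. The log2 fold change at 40 mg/kg was 1.02 (SE 0.715, adjusted p = 0.519, edgeR), and 0.43 without replicate 1 of that group, the animal at 13.8 CPM.

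**Figure D1:**
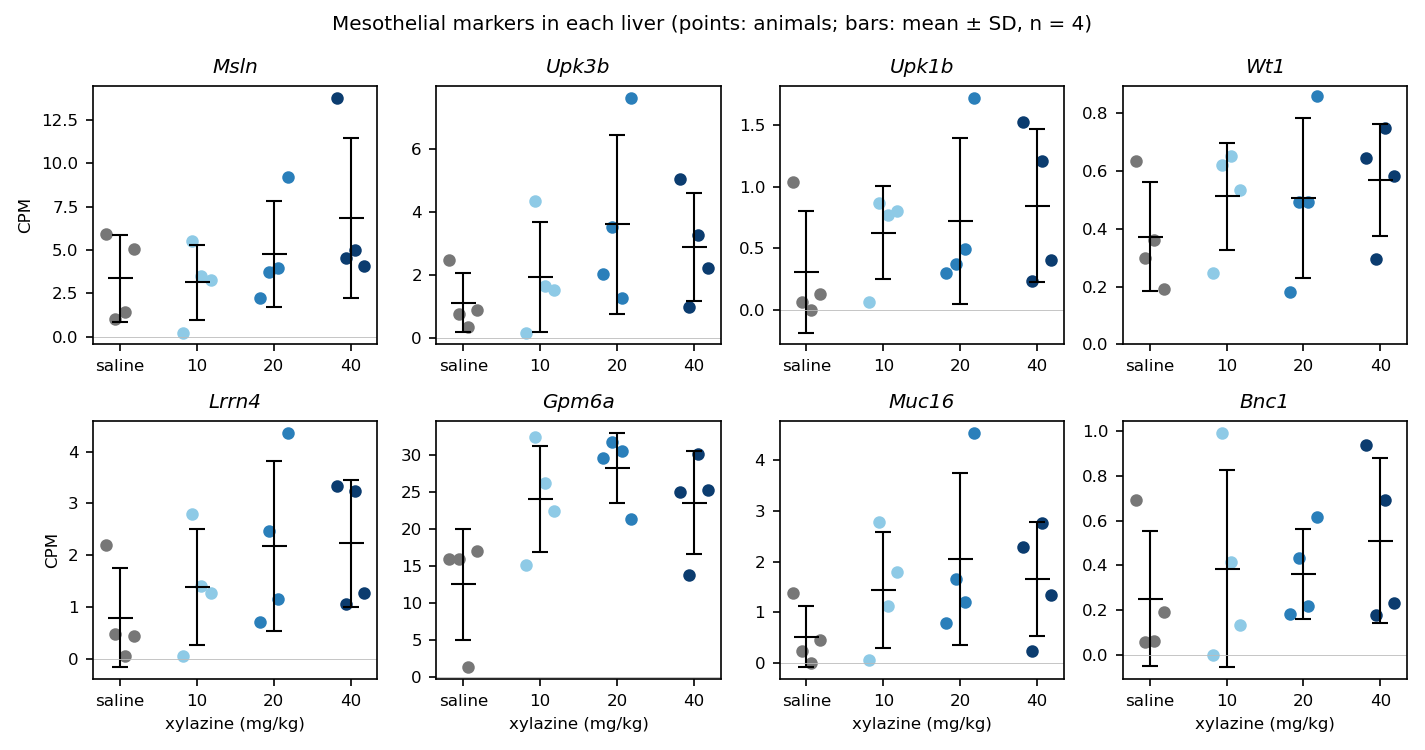
Level of each of the 8 markers in each liver, in CPM on a linear axis, by dose of xylazine; points are animals, bars give the mean ± SD of 4 animals and some bars reach below 0. In every panel the dose groups overlap with saline, except for Gpm6a at 20 mg/kg, where the animals stood between 21.3 and 31.7 CPM and the saline animals at 17.0 CPM or less.

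Upk3b stood at 2.49, 0.779, 0.362 and 0.901 CPM in the saline animals. It stood at 0.184, 4.34, 1.66 and 1.53 CPM at 10 mg/kg and at 2.05, 3.51, 1.26 and 7.62 CPM at 20 mg/kg. At 40 mg/kg the animals stood at 5.05, 1.003, 3.29 and 2.22 CPM. Saline replicate 1 was within the range of all 3 dose groups, while the other 3 saline animals were below every animal given 20 or 40 mg/kg. The log2 fold changes were 0.76 (SE 0.809) at 10 mg/kg, 1.65 (SE 0.785) at 20 mg/kg and 1.34 (SE 0.789) at 40 mg/kg, with edgeR adjusted p of 0.999, 0.553 and 0.429. Exact permutation tests of 4 against 4 animals gave p = 0.6, 0.0857 and 0.114.

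Upk1b, the other uroplakin gene, stood at 1.04, 0.0599, 0 and 0.129 CPM in the saline animals. Its values were 0.0614, 0.869, 0.769 and 0.800 CPM at 10 mg/kg and 0.302, 0.370, 0.494 and 1.72 CPM at 20 mg/kg. The values at 40 mg/kg were 1.53, 0.236, 1.21 and 0.408 CPM. As with Upk3b, saline replicate 1 lay among the treated animals, and the remaining saline animals lay below every animal given 20 or 40 mg/kg. The log2 fold change at 40 mg/kg was 1.41 (SE 0.937, adjusted p = 0.490, edgeR), and 3.62 without saline replicate 1. The latter value rests on saline replicates 2, 3 and 4, with 1, 0 and 2 expected counts, so its size is poorly determined.

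For Wt1, the saline animals stood at 0.636, 0.300, 0.362 and 0.193 CPM. Those given 10 mg/kg stood at 0.246, 0.621, 0.651 and 0.533 CPM, and those given 20 mg/kg at 0.181, 0.493, 0.494 and 0.861 CPM. The values at 40 mg/kg were 0.646, 0.295, 0.750 and 0.583 CPM. All 3 dose groups overlapped with saline. Wt1 had the smallest spread between animals of the 8 genes, and the smallest log2 fold change of the 8 at 20 and at 40 mg/kg. Its log2 fold changes were 0.44, 0.42 and 0.59 at 10, 20 and 40 mg/kg (SE 0.474 to 0.484).

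Bnc1, the other transcription factor gene, stood at 0.694, 0.0599, 0.0604 and 0.193 CPM in the saline animals. It stood at 0, 0.993, 0.414 and 0.133 CPM at 10 mg/kg, at 0.181, 0.431, 0.220 and 0.615 CPM at 20 mg/kg and at 0.939, 0.177, 0.693 and 0.233 CPM at 40 mg/kg. All 3 dose groups overlapped with saline. The log2 fold change at 40 mg/kg was 0.98 (SE 0.868, adjusted p = 0.625, edgeR).

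Lrrn4 stood at 2.20, 0.480, 0.0604 and 0.451 CPM in the saline animals. It stood at 0.0614, 2.79, 1.42 and 1.27 CPM at 10 mg/kg and at 0.725, 2.47, 1.15 and 4.37 CPM at 20 mg/kg. The animals given 40 mg/kg stood at 3.35, 1.06, 3.23 and 1.28 CPM. Again saline replicate 1 alone among the saline animals reached into the range of the 20 and 40 mg/kg groups. The log2 fold change was 1.42 (SE 0.865) at 20 mg/kg and 1.46 (SE 0.863) at 40 mg/kg, where exact permutation tests gave p = 0.143 and 0.0857.

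Muc16 encodes the mucin to which mesothelin binds in humans and mice. It stood at 1.39, 0.240, 0 and 0.451 CPM in the saline animals and at 0.0614, 2.79, 1.12 and 1.80 CPM at 10 mg/kg. It stood at 0.785, 1.66, 1.21 and 4.55 CPM at 20 mg/kg and at 2.29, 0.236, 2.77 and 1.34 CPM at 40 mg/kg. Its log2 fold changes were 1.44 (SE 0.985), 1.95 (SE 0.963) and 1.65 (SE 0.972), and its spread between animals was the widest of the 8 genes on the log2 CPM scale. The edgeR adjusted p values were 0.999, 0.571 and 0.429.

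For Gpm6a, the saline animals stood at 15.96, 15.9, 1.27 and 17.0 CPM. The animals given 10 mg/kg stood at 15.2, 32.5, 26.2 and 22.5 CPM, and those given 20 mg/kg at 29.7, 31.7, 30.6 and 21.3 CPM. Those given 40 mg/kg stood at 25.1, 13.8, 30.1 and 25.4 CPM. At 20 mg/kg all 4 animals were above all 4 saline animals. Gpm6a was the 1 member of 8 without overlap there, beside 2.29% of all genes tested that were above saline in this way. No member was above saline in all animals at 10 mg/kg, where 1.09% of all genes were, or at 40 mg/kg, where 4.45% were.

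The group means of Gpm6a were 12.5 ± 7.52, 24.1 ± 7.23, 28.3 ± 4.74 and 23.6 ± 6.92 CPM (SD, n = 4) from saline to 40 mg/kg. The log2 fold changes were 0.94 (SE 0.499), 1.18 (SE 0.499) and 0.91 (SE 0.499), with edgeR adjusted p of 0.999, 0.515 and 0.394. At 20 mg/kg the unadjusted p was 0.0344, and the exact permutation test gave p = 0.0286, the smallest that 4 against 4 animals allow, in 1 of 24 such tests over 8 genes and 3 doses. Part of the size of these differences rested on saline replicate 3. Without it the log2 fold changes were 0.56, 0.80 and 0.53. The separation at 20 mg/kg did not rest on it, since the remaining saline animals, at 15.9 to 17.0 CPM, also lay below 21.3 CPM. The edgeR adjusted p at 20 mg/kg was 0.317 without it, which did not pass.

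In edgeR's quasi-likelihood test with Benjamini-Hochberg adjustment over all genes, 0 of 8 members passed at 10 mg/kg, where 0% of all genes did, and 0 of 8 at 20 mg/kg, where 0% did. At 40 mg/kg 0 of 8 passed, beside 1.11% of all genes. limma-voom also called 0 of 8 at each dose, and DESeq2 called none, with no adjusted p for Wt1 and Bnc1 at 20 mg/kg. Among all genes, limma-voom called 0, 0 and 128 at 10, 20 and 40 mg/kg, and DESeq2 called 1, 60 and 523. At an unadjusted p under 0.05, the members numbered 0 of 8 at 10 mg/kg against 4.0% of all genes, 1 of 8 at 20 mg/kg against 9.13%, and 0 of 8 at 40 mg/kg against 16.2%. None of these counts set the members apart from genes at large.

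The estimated changes nevertheless pointed mostly upwards. The log2 fold change was above 0 for 7 of 8 members at 10 mg/kg, all but Msln, and for 8 of 8 at 20 and at 40 mg/kg. The median over the members was 0.77, 1.18 and 1.18, whereas the median over all genes was 0.00 at each dose. A log2 fold change of at least 1 was reached by 1, 5 and 5 members at 10, 20 and 40 mg/kg, beside 0.746%, 0.958% and 1.15% of all genes tested. The 3 comparisons share their saline animals, and the members move together, so these counts are not independent of each other. The members also vary more between animals than most genes, as described below. The share over all genes, here and for the trend, is therefore not a like reference for estimates of this size. Without saline replicate 1, the saline animal with the highest level of 7 of the 8 members, the medians were 1.67, 2.06 and 2.15. They were as low as 0.26 at 10 mg/kg without replicate 2 of that group, 0.57 at 20 mg/kg without replicate 4 of that group and 0.89 at 40 mg/kg without saline replicate 3.

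**Figure D2:**
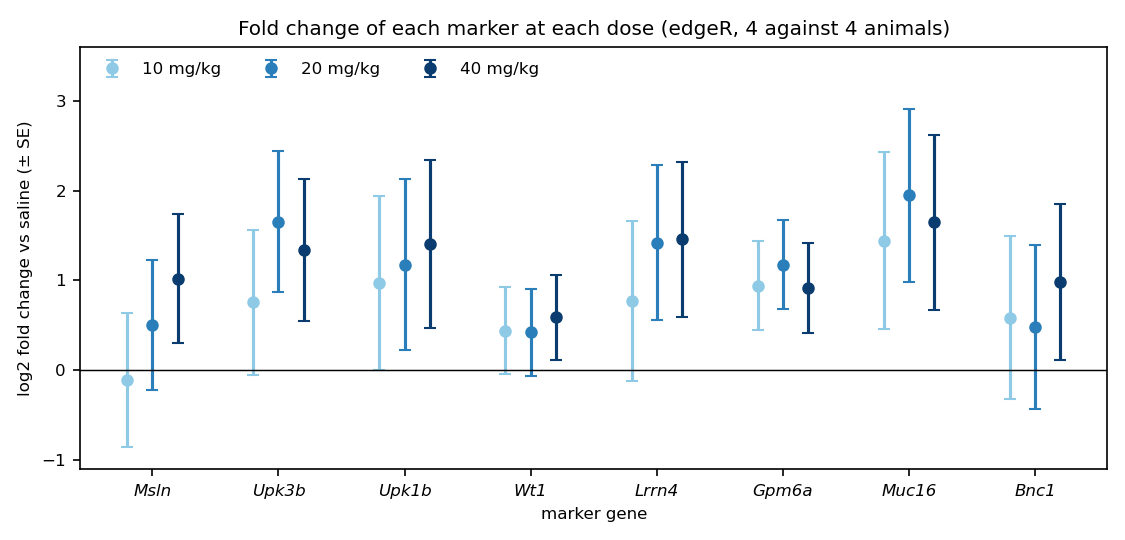
Log2 fold change of each marker at 10, 20 and 40 mg/kg xylazine against saline, with the standard error, from edgeR fits to 4 animals per group. All points but that of Msln at 10 mg/kg (-0.11) lie above 0, and none passed an adjusted p under 0.05.

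A linear trend over dose asked whether the level followed the amount of xylazine. Expressed as the change between saline and 40 mg/kg, it was above 0 for all 8 members, with a median of 1.14 on the log2 scale. It ranged from 0.48 for Wt1 (SE 0.427) to 1.33 for Lrrn4 (SE 0.793), and Msln had the smallest unadjusted p, 0.0878, with a change of 1.14 (SE 0.626). In edgeR 0 of 8 members passed at adjusted p values of 0.345 to 0.593, beside 2.91% of all genes tested. At an unadjusted p under 0.05 none of the members passed, against 18.8% of all genes. A change of at least 1 was estimated for 5 of 8 members and for 1.08% of all genes.

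The steps between doses were smaller. The median log2 difference over the members was 0.37 from 10 to 20 mg/kg, 0.41 from 10 to 40 mg/kg and 0.10 from 20 to 40 mg/kg. In edgeR 0 of 8 members passed in these 3 steps, where 0%, 0.361% and 0% of all genes did. At an unadjusted p under 0.05 the members numbered 0 in each, against 7.74%, 13.3% and 5.40% of all genes. A test of any difference between the 4 groups called 0 of 8 members, at adjusted p of 0.614 to 0.913, beside 0.361% of all genes, and 0 of 8 at an unadjusted p under 0.05 beside 12.3%.

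The spread between animals of one group was large for these genes. The biological coefficient of variation estimated by edgeR was 0.306 for Wt1 and 0.506 for Gpm6a, and lay between 0.710 and 0.924 for the other 6, against a median of 0.136 over all genes tested. Wt1 stood at percentile 88.2 of all genes, Gpm6a at 96.6, and the other 6 between 98.6 and 99.4. By mean CPM Gpm6a stood at percentile 64.3, and the other members between 0.0943 (Bnc1) and 27.8 (Msln). All genes tested are therefore not a reference of like level for most members. Few reads make a level uncertain by themselves, but the variance of the scaled counts within groups was 5.07 to 38.3 times their mean for 7 of the members, where pure counting error gives about the mean. Wt1 was the exception, with a variance of 1.57 times its mean. The median over all genes tested was 3.54 times the mean. The dose groups took up 11.8% (Bnc1) to 37.9% (Gpm6a) of a member's variance on the log2 scale, against a median of 21.7% over all genes.

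**Figure D3:**
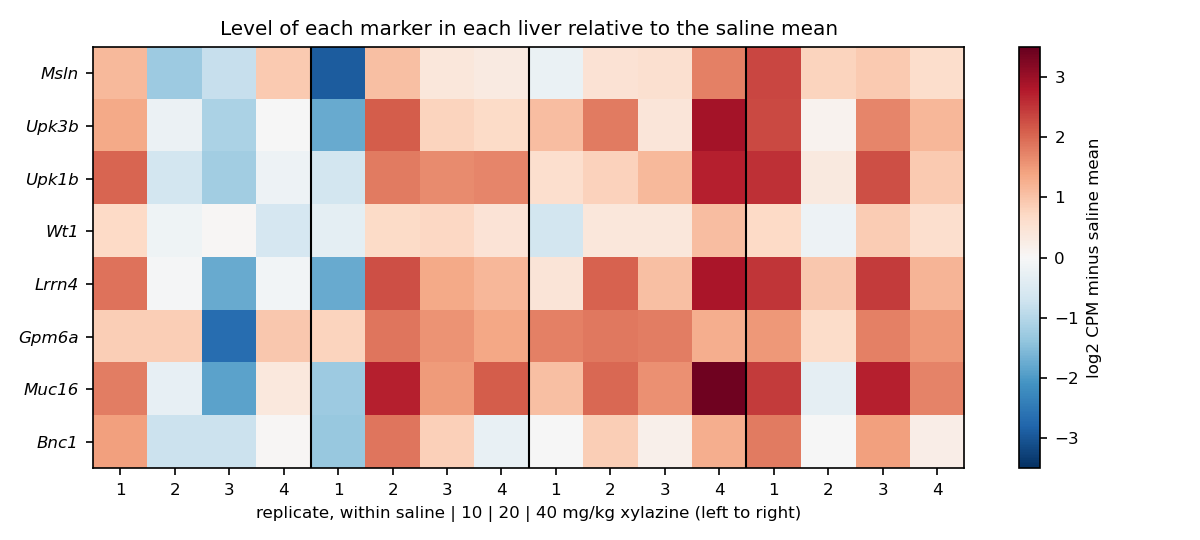
Level of each marker (rows) in each liver (columns, replicates 1 to 4 within saline, 10, 20 and 40 mg/kg xylazine), as log2 CPM minus the mean of the saline animals; red is higher and blue lower. Whole columns share a colour. Saline replicate 1 and replicates 2 and 3 at 10 mg/kg lie above the saline mean for every marker. So do replicates 2, 3 and 4 at 20 mg/kg and replicates 1, 3 and 4 at 40 mg/kg, some of them only slightly for single markers. Saline replicates 2 and 3 and replicate 1 at 10 mg/kg are mostly blue.

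The same animals were high or low for most members. Saline replicate 1 was above the median of all 16 libraries in 7 of 8 members. Saline replicate 4 was above it in 1 of 8, and saline replicates 2 and 3 in 0 of 8. At 10 mg/kg, replicate 2 was above in 8 of 8, replicate 3 in 5, replicate 4 in 3 and replicate 1 in 0. At 20 mg/kg, replicate 4 was above in 7 of 8, replicate 2 in 5 and replicates 1 and 3 in 2. At 40 mg/kg, replicates 1 and 3 were above in 8 of 8, replicate 4 in 7 and replicate 2 in 1. Each group thus held at least 1 animal with high and 1 with low mesothelial transcripts. Most saline animals were low, however, and most animals given 40 mg/kg were high. Averaged over the members, the log2 level relative to the saline mean ran from -1.27 to 1.40 in the saline animals, from -1.15 to 1.79 at 10 mg/kg, from 0.51 to 2.16 at 20 mg/kg and from 0.29 to 2.02 at 40 mg/kg. The lowest animals given 20 or 40 mg/kg were above 3 of the 4 saline animals by this average.

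Between members, the correlation of log2 CPM over the 16 animals was computed after each group's mean was removed, with p from 100000 permutations within groups and Benjamini-Hochberg adjustment over the 28 pairs. The 6 genes Msln, Upk3b, Upk1b, Lrrn4, Muc16 and Bnc1 went closely together. Over their 15 pairs Pearson's r lay between 0.824 and 0.945 and Spearman's rho between 0.809 and 0.947. The permutation p of r was 3e-05 to 0.00141, with adjusted values up to 0.00263. Without the 2 animals farthest from the median of the first gene of a pair, r was 0.713 to 0.910. The closest pair was Upk3b and Lrrn4, with r = 0.945 and rho = 0.947 (permutation p = 6e-05 and 5e-05), and r was 0.910 without the 2 farthest animals. As these genes were chosen as markers of 1 cell type with earlier results of these animals known, their agreement is a description and not independent evidence.

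Wt1 followed the 6 genes less closely. Its r with them was 0.618 to 0.795 and its rho 0.721 to 0.888, with permutation p of r between 0.00188 and 0.0223 and adjusted p up to 0.0284. Without the 2 farthest animals r was 0.508 to 0.706. Gpm6a went least with the others. Its 7 correlations ran from r = 0.120, with Wt1, to r = 0.612, with Muc16, and rho from 0.285 to 0.562. Only the pair with Muc16 had an adjusted permutation p under 0.05 (0.0176), and its r was 0.434 without the 2 farthest animals and 0.358 on log2 TPM. The 2 genes with the highest levels per length, Gpm6a and Msln, had an r of 0.354 (rho = 0.385, permutation p = 0.246 for r and 0.195 for rho, adjusted p = 0.255 for r), and 0.280 without the 2 farthest animals.

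**Figure D4:**
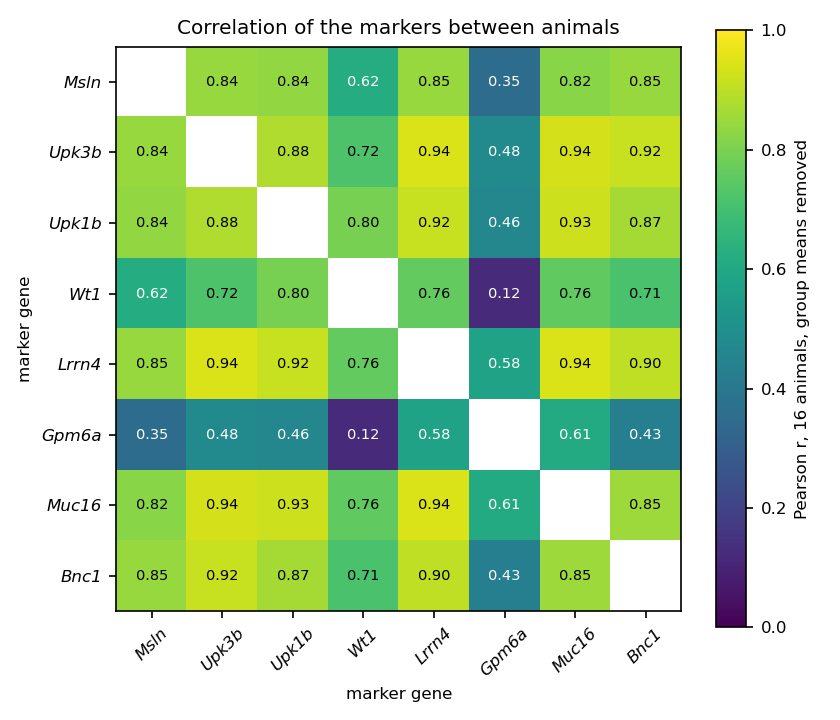
Pearson correlation of each pair of markers over 16 animals, on log2 CPM with group means removed; colour and the printed value give r. The 15 pairs among Msln, Upk3b, Upk1b, Lrrn4, Muc16 and Bnc1 lie between 0.824 and 0.945, the row of Wt1 is lower and the row of Gpm6a lowest.

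The genes whose pattern was most like that of the members, by Pearson's r with the mean standardised level of the 8 members over 16 animals after group means were removed, were Cmahp (0.957), Prss12 (0.951), Prph (0.933) and Rspo1 (0.891), then Ist1 (0.866), Qtrt2 (0.864), Ammecr1l (0.863) and Onecut1 (0.859). The first 4 were genes of low level, between 0 and 48 expected counts per library. Prss12 encodes the secreted protease neurotrypsin, Prph the intermediate filament peripherin, and Rspo1 a secreted enhancer of Wnt signalling. Like the members, they had log2 fold changes above 0 at 40 mg/kg, between 0.75 and 1.54, which did not pass in edgeR (adjusted p 0.363 to 0.561).

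The next 4 had estimated changes with dose in the other direction. Ammecr1l had 1049 to 2239 expected counts per library, and Onecut1, a transcription factor of hepatocytes and bile duct cells, had 164 to 4077. Their log2 fold changes at 40 mg/kg were below 0, from -1.99 for Onecut1 to -0.38 for Ist1, with edgeR adjusted p between 0.0769 and 0.356. For Onecut1 the saline animals had 4077, 1668, 498 and 2484 counts and those given 10 mg/kg had 206, 2121, 3250 and 1494. The order of these animals was close to that of the members, with saline replicate 3 and replicate 1 at 10 mg/kg lowest in their groups. Over all 12724 genes that are no members, 761 had an r above 0.5 with the members' mean and the median r was 0.00. No reference value was computed for that count. The part of differences in other genes in the members' pattern was not tested.

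A list of 18 further genes known from mesothelium was examined beside the members. The table held 15 of them and 12 were tested. Their median r with the members' mean was 0.40, and 5 of 12 were above 0.5, beside 761 of 12724 genes. These were Rspo1 (0.891), the membrane glycoprotein podoplanin Pdpn (0.822), the tight junction gene Cldn15 (0.817), the keratin Krt7 (0.728) and the matrix gene Efemp1 (0.578). Krt7 is also a marker of bile duct cells. The log2 fold changes of the 12 genes were above 0 for 3, 8 and 10 of them at 10, 20 and 40 mg/kg. Their medians were -0.26, 0.11 and 0.36. None passed in edgeR at any dose or in the trend, beside 0%, 0%, 1.11% and 2.91% of all genes tested. At 40 mg/kg the log2 fold changes ran from -1.41 for Slpi to 1.23 for Pdpn.

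Relatives of the members from the same gene families mostly had few reads. Lrrn3 had a log2 fold change of 0.33 at 40 mg/kg (adjusted p = 0.698, edgeR) and Gpm6b one of 0.31 (adjusted p = 0.697, edgeR), so neither passed. Upk2 and Lrrn2 had at most 1 expected count in any library, Bnc2 at most 3, Upk1a and Mslnl at most 5, Lrrn1 at most 12 and Muc4 at most 18.

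Markers of other cells of the liver and its surroundings had median correlations with the members near or below 0. The median r with the members' mean was -0.08 for 10 genes of capsule and portal fibroblasts, -0.03 for 11 of hepatic stellate cells, -0.10 for 13 of the transition from mesothelial to mesenchymal cells and -0.18 for 7 of smooth muscle. It was 0.05 for 8 genes of sinusoidal endothelium, 0.07 for 5 of bile duct cells, -0.14 for 8 of Kupffer cells, -0.24 for 5 of peritoneal macrophages and B cells and -0.19 for 10 of hepatocytes. Within these lists Krt7 was the 1 gene with an r above 0.5. The lowest values were those of Snai2 (-0.775), Lmod1 (-0.629), Tat (-0.617), Selp (-0.586), Actg2 (-0.541) and Hnf4a (-0.534). These are single genes picked by their values. Over all genes that are no members r ran from -0.891 to 0.957.

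**Figure D5:**
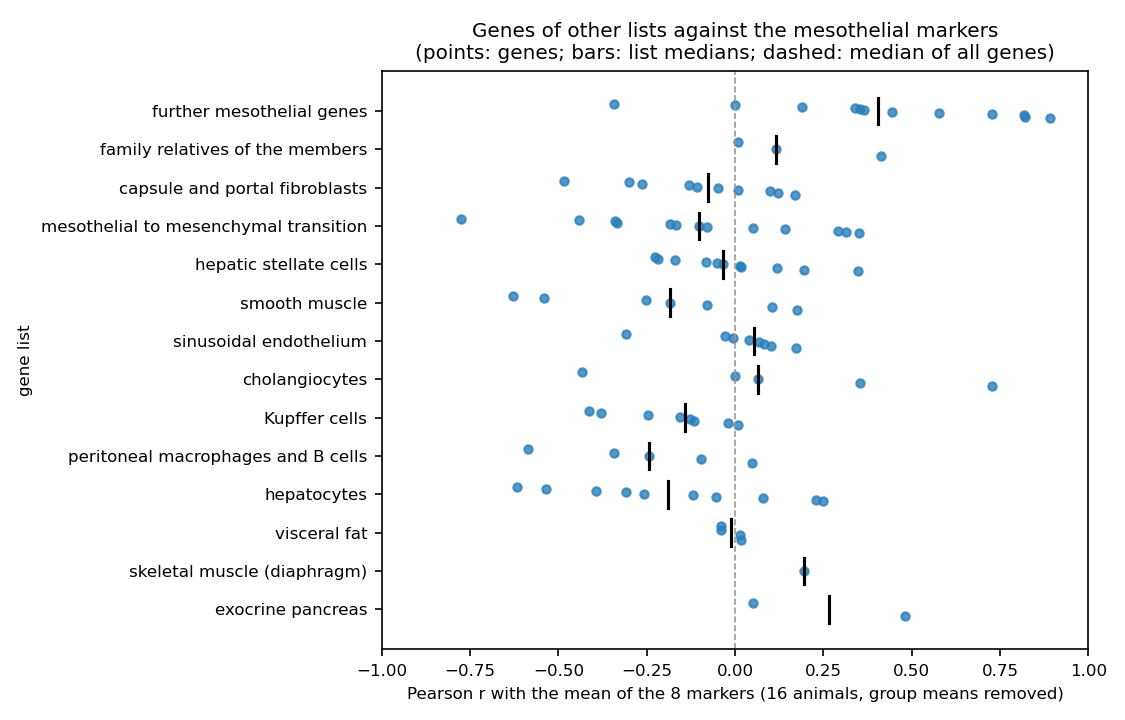
Pearson correlation of single genes with the mean of the 8 markers over 16 animals, group means removed, by list of cell type genes; points are genes, bars are list medians and the dashed line is the median of all genes. The list of further mesothelial genes has a median of 0.40 and 5 genes above 0.5, and the medians of the other lists lie between -0.24 and 0.27.

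Tissues that can adhere to a liver piece were also checked. The summed level of 10 skeletal muscle genes, as from diaphragm, was at most 1.64 CPM in any library. Of 7 fat genes in the table, Adipoq, which encodes the fat cell hormone adiponectin, had at most 1 expected count, Plin4 at most 7, Aqp7 at most 9 and Fabp4 at most 19. The others, Cidea, Cidec and Pck1, had 54 to 57554. Of 6 exocrine pancreas genes, Cpa1, Ctrb1 and Amy2a3 had at most 1 expected count and Cel at most 7, while Cela1 had 183 to 372. Cpb1, a pancreatic carboxypeptidase gene, had 0 to 50 expected counts, with log2 fold changes of 1.86, 1.56 and 3.03 at 10, 20 and 40 mg/kg that did not pass in edgeR (adjusted p = 0.999, 0.735 and 0.167), and its r with the members' mean was 0.05. Cela1, the other pancreas gene tested, had an r of 0.48 with the members' mean. The summed pancreas list lay between 11.1 and 21.7 CPM. The part of adhering tissue in the members' levels was not tested. The summed level of the capsule and portal fibroblast list was 304 to 583 CPM in the saline animals and 349 to 419, 379 to 632 and 456 to 707 CPM at 10, 20 and 40 mg/kg. Dpt, the matrix protein dermatopontin, made up most of this sum, with 3663 to 10314 expected counts per library. Over the 10 tested genes of the list the median log2 fold change at 40 mg/kg was -0.13, with 4 of 10 above 0. None of them passed in edgeR there, beside 1.11% of all genes tested.

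A few genes of these lists passed in edgeR. In smooth muscle the myosin light chain kinase gene Mylk stood lower at 40 mg/kg, by a log2 difference of -0.35 (adjusted p = 0.0416), and lower over the trend, by -0.38 (adjusted p = 0.0194). Of the stellate cell list, the growth factor receptor gene Pdgfrb was higher along the trend, with 0.44 (adjusted p = 0.0351). Pck1, which fat cells share with hepatocytes, stood lower at 40 mg/kg, by -1.14 (adjusted p = 0.0200) and along the trend, with -1.28 (adjusted p = 0.0112). The lipid droplet gene Cidec was lower along the trend, with -0.45 (adjusted p = 0.0352), and of the hepatocyte list the urea cycle gene Cps1 was lower along the trend, with -0.43 (adjusted p = 0.0451). No gene of the mesothelial lists was among those that passed. Over all genes tested, 1.11% passed at 40 mg/kg and 2.91% in the trend. The absence therefore does not set these short lists apart from genes at large.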

How the data were processed

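Messenger RNA of 16 rat livers, 4 per group, had been sequenced. The submitters' processing notes name the build mRatBN7.2 and the tools DESeq2, RSEM and Bowtie2. Versions, roles, read filters and strandedness are not given in the sources used here. The authors deposited expected counts, which are estimated counts of reads per gene with no normalization, TPM scaled to a common total, and FPKM scaled by length and library size. The 16 columns of normalized read counts and the 16 of averages were not used.

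Expected counts were rounded to whole numbers, which could shift the lowest levels. Genes were kept by filterByExpr with a minimum count of 10 and a minimum total of 15, leaving 12732 of 17544. CPM with TMM factors (0.924 to 1.10) and log2 fold changes came from quasi-likelihood fits in edgeR 4.0.16 (R 4.3.3) over all 16 libraries, with 1 term per group or dose as a number. The p values were two-sided and Benjamini-Hochberg adjusted over all genes tested, with 0.05 as the threshold. Log2 CPM used a prior count of 2, and SEs were derived from each log2 fold change and its F statistic. Exact and within-group permutation tests used scipy 1.17.1 and Python 3.11.15. Replicates were separate livers, so the tests took animals as their units.

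The members and the gene lists were chosen with earlier results of these data known. All 8 members were named in every comparison. From other lists up to 4 genes with an adjusted p under 0.05 in a dose comparison or the trend were named. The 8 genes most like the members by Pearson's r were named too. Rspo1, Pdpn, Cldn15, Krt7, Efemp1, Slpi, the low family relatives and Dpt were named after their values were seen. So were the genes of fat and pancreas and those of lowest r in the lists of other cells. Promoter windows came from RefSeq (GRCr8), a build other than that of the counts. Alternatives were DESeq2 1.42.0, limma-voom and limma 3.58.1 on log2 TPM or FPKM, other scalings and filters, a replicate block, the compared groups alone and leaving out each library. The model was tested on simulated data.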

Additional observations from a re-analysis of the deposited data

Results flagged for a closer look

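In 5 of the 32 combinations of a member and a dose group, 1 of the 4 animals stood far from the other 3: its gap to the nearest animal, divided by the range of the group, was above the critical value of Dixon's outlier test. For normally distributed values, chance alone flags about 1 in 20 such groups. CPM of genes with few reads need not follow that distribution, so the share that chance flags here is not known. The members also vary together, so the 32 are not independent.

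Msln stood at 13.8 CPM in replicate 1 at 40 mg/kg, with a gap of 0.903 of the range. Upk1b was set apart in 3 groups. It stood at 1.04 CPM in saline replicate 1 (gap 0.876), at 0.0614 CPM in replicate 1 at 10 mg/kg (gap 0.877), which is 1 read, and at 1.72 CPM in replicate 4 at 20 mg/kg (gap 0.864). These animals were also the highest, or for 10 mg/kg the lowest, of their group for Upk3b and Lrrn4.

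Gpm6a stood at 1.27 CPM in saline replicate 3, with a gap of 0.929. The 21 expected counts there compare with 264 to 276 in the other 3 saline animals. The same library had no read of Upk1b or Muc16, whereas its Wt1 count of 6 was within the saline range.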

How the results depend on the processing

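No member passed an adjusted p under 0.05 in the 3 dose comparisons or the trend under the alternative settings and 16 removals of 1 library that gave it one. DESeq2 gave none for Wt1 and Bnc1 at 20 mg/kg, and a fit of the compared groups alone tested 6, 5 and 6 members at 10, 20 and 40 mg/kg. Of 849 member values recomputed, 842 kept their direction and 7 changed sign without passing. These counts overstate the stability. In a comparison of 1 dose with saline, removing a library of another group hardly moves the estimate, so those values could hardly change sign. With Msln at 10 mg/kg, the log2 fold change of -0.11 was 0.087 with the replicate block and ran from -0.53 to 0.32 over the removals. At the same dose Upk3b ran from -0.021 to 1.497 and Bnc1 from -0.45 to 1.84, both lowest without replicate 2 at 10 mg/kg. At 20 mg/kg Msln ran from -0.024, without replicate 4 of that group, to 0.94. The cause was not tested. At 40 mg/kg the removals gave 0.43 to 1.45 for Msln, 0.97 to 3.62 for Upk1b, 0.93 to 2.08 for Upk3b, 1.07 to 2.73 for Lrrn4, 0.52 to 2.23 for Bnc1 and 1.24 to 2.83 for Muc16, each highest without saline replicate 1. The median over the members ran over the removals from 0.26 to 1.67 at 10 mg/kg, 0.57 to 2.06 at 20, 0.89 to 2.15 at 40 and 0.77 to 1.45 for the trend, highest in each case without saline replicate 1. Over the other settings it ran from 0.11 to 0.86, 0.31 to 1.65, 0.38 to 1.41 and 0.37 to 1.36, and the low ends came from log2 TPM or FPKM with 1 added, a scale that understates changes of low genes. The filter of 1 CPM in 4 libraries kept 6 of the 8 members.

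The labels state no pairing of animals by replicate number. Over all genes, 4 of 24 same-numbered pairs from different groups correlated above 0.1, beside 8 of 72 pairs of different number. Of the animals, 5 of 16 went best with their own number. These counts cannot decide whether the numbers pair animals. The replicate block called no member, and gave medians of 0.83, 1.24, 1.27 and 1.14 for the 3 doses and the trend. Among all genes, DESeq2 called 1, 60, 523 and 752 in these 4 comparisons, where edgeR called 0, 0, 141 and 371. Over the removals edgeR called 0 to 19 at 20 mg/kg, 27 to 198 at 40 mg/kg and 127 to 405 for the trend. Every member but Gpm6a rested on few reads in places, since each of the other 7 had at most 4 expected counts in at least 1 library. The part of depth in these low values was not tested. The median r between members was 0.821 on log2 TPM, beside 0.831, and r of Gpm6a with Muc16 was 0.358, beside 0.612.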
